A study of Homo sapiens with 10 samples.

Results

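The genes described here are those that 3 of 4 blood cancer cell lines expressed and that HL60 did not, or expressed far less. Members were chosen by their measured levels in the pure lines: a gene was a member when K562, SUDHL4 and THP1 each had at least 5 normalised CPM (reads per 1000000, rescaled between libraries by the submitters) and log2(value + 1) in HL60 lay at least 2 below the lowest of those 3 lines. That difference is called the margin. Of 20591 genes in the table, 7439 passed the minimum in the 3 other lines, and 101 of these were members, which is 1.36% of the genes that could have been called. HL60 was derived from an acute leukaemia with promyelocyte features. K562 came from a chronic myeloid leukaemia and has erythroid features, SUDHL4 is a B cell lymphoma line of germinal-centre type, and THP1 grew out of an acute leukaemia of monocytes. All were labelled wild type, untreated and collected at day 0, and were kept in RPMI medium with 10% serum. The series held 1 RNA-seq library of each pure line and 6 mixtures of the 4 lines whose ratios the labels do not give. Library preparation used 1 of a pair of stranded kits, for low-input total RNA or for mRNA, and the labels do not tie a kit to a library.

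With 1 library per line, no difference between lines has a replicate check, no test was possible, and the intervals printed here cover counting error only. Reads ran from 27166921 (SUDHL4) to 34571443 (K562) in the pure libraries, with 33050514 in HL60. A gene with 1 read in HL60 stood at 0.0503 normalised CPM, and each further read added 0.0335. HL60 carried its own defining genes, with myeloperoxidase (MPO) at 15646 and CEBPE at 216, and it had 0 reads of the B cell gene MS4A1 and of the THP1 marker TGFBI. Over lists of marker genes, the median difference of HL60 from the mean of the other lines was 4.39 log2 units for 11 HL60 markers. It was -2.57 for 10 K562 markers, -3.10 for 10 SUDHL4 markers and only -0.76 for 10 THP1 markers. Of the 9 stromal and epithelial markers measured, the highest in HL60 was LUM at 0.721, with 6 at 0.

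Blood cells that grow in suspension still use the proteins of adhesion sites. Talin, paxillin and focal adhesion kinase join integrins to actin, alpha-catenin joins cadherins to actin, and proteins of the band 4.1 family tie actin and spectrin to the membrane. MEF2C is a transcription factor of B cells, monocytes and muscle, and hexokinase and the peroxiredoxins are enzymes that most cells use. Genes of each of these kinds were among the losses in HL60.

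The label "silent" held for only some of the members. In HL60, 36 of 101 had 3 reads or fewer, and 20 of these had 0 reads. Another 34 had more than 3 reads but stayed under 1 normalised CPM, 19 lay from 1 to under 5, and 12 lay between 5.65 and 18.8, so that these last were lowered and not silent. The median member stood at 0.385 in HL60 and at 13.7 in the lowest of the other lines, with a median margin of 3.07 and a range from 2.01 to 6.38. Members were not the most abundant genes, since the lowest-of-3 level had a median of 28.5 over all genes that passed the minimum. In those genes the median margin was -0.69, and HL60 had a median difference of 0.16 log2 units from the mean of the other lines, against -3.88 in the members. These values come from the same contrast that chose the members and describe them only.

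**Figure D1:**
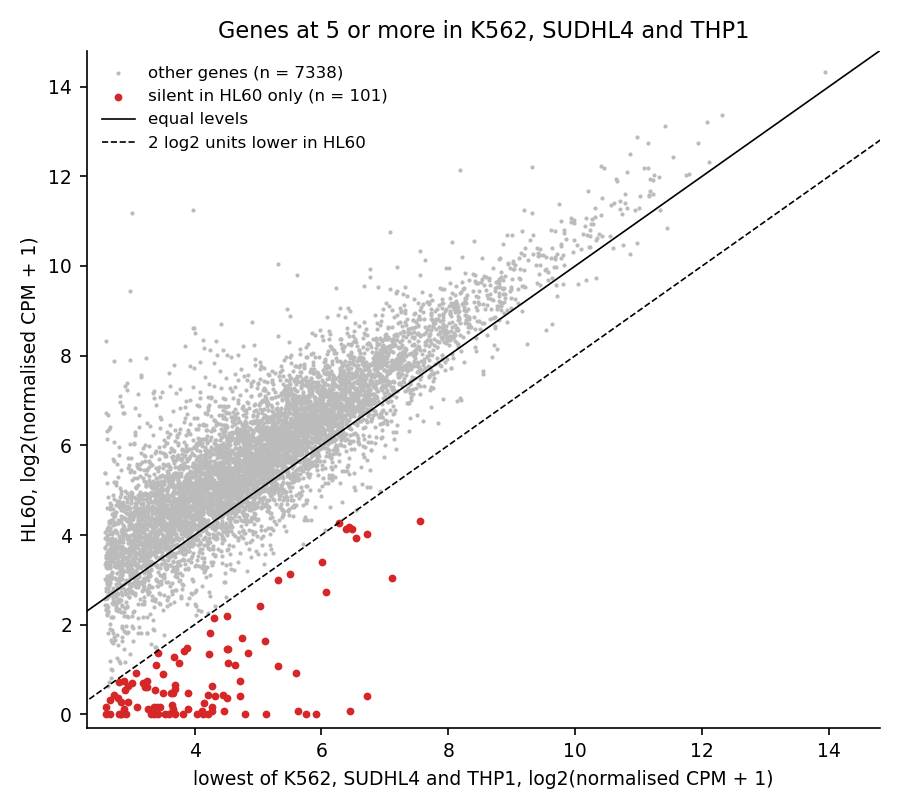
Level in HL60 (y axis) against the lowest of K562, SUDHL4 and THP1 (x axis), both as log2(normalised CPM + 1), for the 7439 genes at 5 or more in those 3 lines. The 101 members (red) lie below the dashed line by construction, and 36 of them sit at the bottom with 3 reads or fewer in HL60.

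The values just inside and just outside the threshold formed a continuous range. CTSZ, the protease cathepsin Z, was the last gene inside with a margin of 2.01, at 18.2 in HL60 against 76.3 in K562, 206 in SUDHL4 and 303 in THP1. LINC01184 and USP2 followed at margins of 2.06 and 2.08. Just outside were TNFSF9 at a margin of 2.00 (below the threshold before rounding), CAST at 1.98 and MMP15 at 1.98. There were 41 genes with a margin from 1.5 to under 2 and 26 from 2 to under 2.5.

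Under the same rule the other lines had 275 losses in K562 (3.62% of 7602 genes), 311 in SUDHL4 (4.04% of 7707) and 53 in THP1 (0.712% of 7442). Only THP1 had fewer losses than HL60, an order that reversed with a margin of 1.5 (163 in THP1 and 142 in HL60). Among the members, SUDHL4 was the highest line for 42 (41.6%, against 35.5% of all genes that passed the minimum), K562 for 33 (32.7% against 41.2%) and THP1 for 26 (25.7% against 23.3%). For the members, the lowest of the other lines was THP1 for 46, K562 for 33 and SUDHL4 for 22. No share over all genes that passed is available for these counts, so they only describe the members. Over the other lines the members ranged by a median of 1.503 log2 units, against 1.04 over all genes that passed the minimum. Of the members, 30 stayed within 1 log2 unit over the 3 lines and 15 differed by 3 or more there, again without a share over all genes.

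By role, 25 members served cell shape, adhesion and the cytoskeleton. Roles were assigned to the members alone, so that these group sizes have no background share and only order the description. EPB41L2, a band 4.1 protein under the membrane, had the largest margin of all members, 6.38. It stood at 0.0503 in HL60, from 1 read, against 86.5 in K562, 154 in SUDHL4 and 114 in THP1. The lowest other line was 2580 times HL60, with a counting interval of 463 to 101943. TUBB6, a beta-tubulin, stood at 0.318 in HL60 from 9 reads, against 134, 104 and 200 in K562, SUDHL4 and THP1, a ratio to the lowest of 346 (182 to 758). Both were therefore high in every other line and had 9 reads or fewer in HL60. ARHGEF12, a guanine nucleotide exchange factor, stood at 0.0503 in HL60 against 200 in K562, 62.4 in SUDHL4 and 48.4 in THP1.

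Adhesion-site proteins followed. PXN (paxillin, the scaffold of focal adhesions) stood at 1.12 in HL60, from 33 reads, against 83.1, 38.6 and 49.2 in K562, SUDHL4 and THP1, a ratio to the lowest of 34.9 (24.7 to 51.0). PTK2 (focal adhesion kinase, which binds paxillin) stood at 0.0503 in HL60 against 112, 145 and 18.4. CTNNA1 (alpha-catenin) stood at 0.184 in HL60 against 224, 16.7 and 122. These 3 genes differed from each other in the other lines: SUDHL4 was the lowest of the other lines for PXN and CTNNA1, and THP1 for PTK2. PDLIM1, a PDZ and LIM domain protein of actin fibres, had 0 reads in HL60 against levels of 168, 17.5 and 51.8, and was at least 174-fold lower than the lowest of them, where 3 reads stand in for 0. SEPTIN11, a septin of the cell cortex, was lowered and not silent, at 15.2 in HL60 from 452 reads against 197, 116 and 105. PTK2 and CTNNA1, like every gene named from here on that is not covered by the naming rule, were chosen after their values were seen.

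Motor and actin regulators were a further subset. Non-muscle myosin MYH10 stood at 1.76 in HL60 against 254 in K562, 161 in SUDHL4 and 22.2 in THP1. The unconventional myosin MYO1C stood at 2.13 against 36.1, 42.0 and 33.5. MYO6, which moves toward the minus end of actin, stood at 0.151 against 12.8, 11.5 and 23.4. These 3 were the members among 7 MYH and MYO genes that passed the minimum, 42.9% beside 1.36% of all genes, in a family picked after the members were seen. WASF1, which links Rac to branched actin, stood at 0.385 against 11.7, 75.3 and 40.1.

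A list of 34 actin and adhesion genes held 22 that passed the minimum in the other lines and 0 members. Beside the 1.36% of all genes, a list of that size says little either way by its count, and it had a median margin of -0.90 against -0.69 for all genes that passed. Talin (TLN1) stood at 789 in HL60 against 730, 676 and 999 in K562, SUDHL4 and THP1, and vinculin (VCL) at 175 against 524, 249 and 80.7. Filamin A (FLNA) was highest in HL60, at 2449 against 1054, 360 and 14.7. These 3 proteins of actin and adhesion sites were thus expressed in HL60, while PXN was at 1.12 and PTK2 had 1 read.

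**Figure D2:**
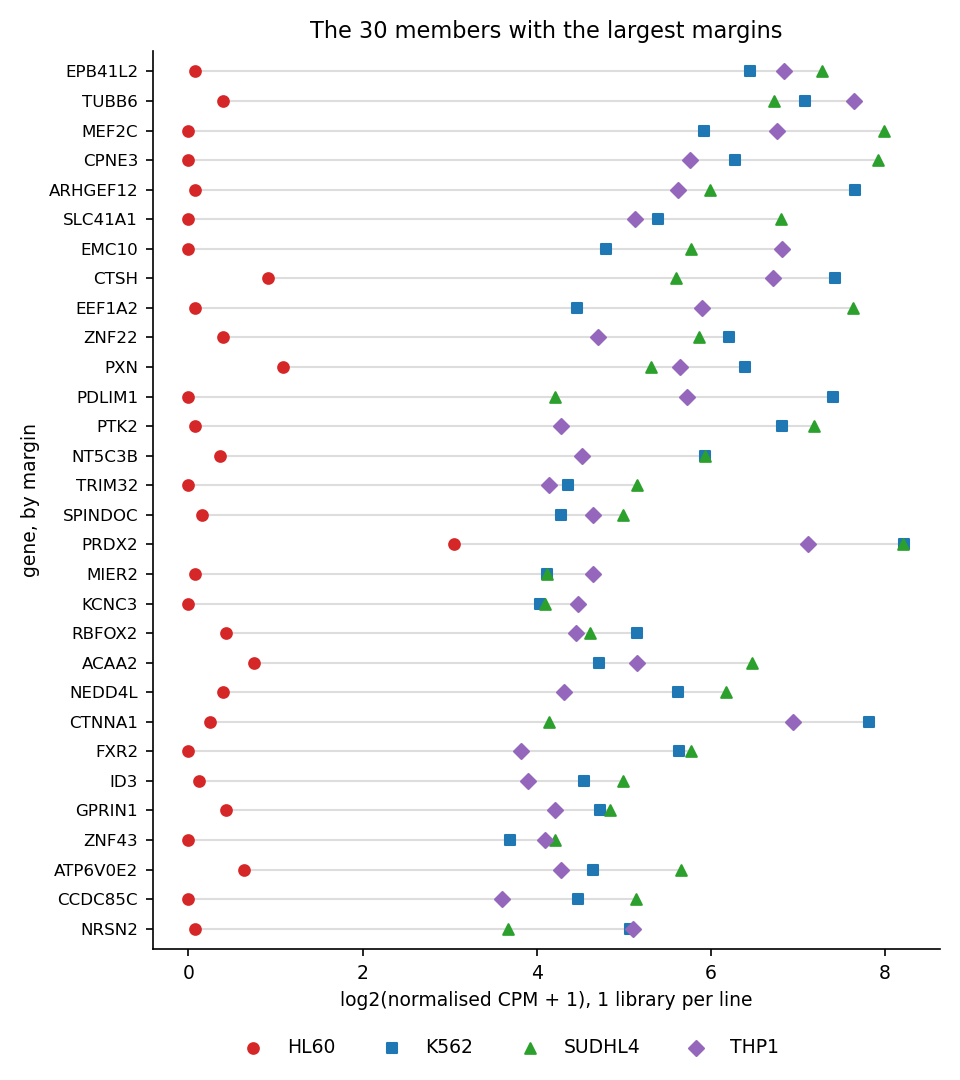
Levels of the 30 members with the largest margins in HL60, K562, SUDHL4 and THP1, as log2(normalised CPM + 1) with 1 library per line. The HL60 point is the lowest in each row by construction, from 0 for genes such as MEF2C to 0.888 for CTSH, 1.12 for PXN and 7.26 normalised CPM for PRDX2, while the other lines spread widely for genes such as CTNNA1 (16.7 to 224).

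Transcription and RNA-binding factors numbered 17. MEF2C had 0 reads in HL60, against 59.6 in K562, 252 in SUDHL4 and 107 in THP1, and was at least 593-fold lower than the lowest of them. FXR2, an RNA-binding protein related to the fragile X protein, also had 0 reads in HL60, against 48.6, 53.8 and 13.1, at least 130-fold lower. ID3, an inhibitor of E proteins, stood at 0.0838 in HL60 from 2 reads, against 22.4, 30.9 and 13.9. RBFOX2, a splicing factor, stood at 0.352 against 34.6, 23.4 and 20.9, and the mRNA decay factor ZFP36L1 at 0.0838 against 22.7, 42.6 and 11.6. All 5 had 10 reads or fewer in HL60 and over 10 normalised CPM in every other line.

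Symbols of zinc finger genes beginning with ZNF or ZFP made up 9 members of 199 that passed the minimum, 4.52% against the 1.36% of all genes. ZNF22 had the largest margin among them, at 0.318 in HL60 against 73.1, 57.0 and 25.2 in K562, SUDHL4 and THP1. ZNF43 and ZNF525, both in chromosome 19 clusters, had 0 reads in HL60. Of the 9, ZFP36L1 and ZNF385A are not of the classic DNA-binding kind, and ZNF385A was only lowered, at 5.65 in HL60. The share on chromosome 19 was 4 of 80 zinc finger genes (5.00%), and other genes of that chromosome had 14 of 421 (3.33%).

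Enzymes of metabolism numbered 20. CTSH, the protease cathepsin H, stood at 0.888 in HL60 from 26 reads against 171 in K562, 47.4 in SUDHL4 and 104 in THP1, a ratio to the lowest of 54.4 (36.9 to 83.5). PRDX2, a peroxidase of hydrogen peroxide, was still expressed in HL60, at 7.26 from 216 reads against 297, 296 and 138, a ratio of 19.05 (16.6 to 21.9). HK1, the first enzyme of glycolysis in most tissues, stood at 9.47 in HL60 against 1241, 225 and 63.2. KYNU, of tryptophan breakdown, had 0 reads in HL60 against 10.6, 76.9 and 38.8. ALDH2, which clears acetaldehyde, stood at 0.0838 in HL60 from 2 reads against 13.1, 6.44 and 67.9. Cathepsins H and Z were 2 members of 6 cathepsin genes that passed the minimum, 33.3% beside 1.36% of all genes, in a family likewise picked afterwards. CSTB, an inhibitor of cathepsins counted with this group, stood at 17.2 in HL60 against 85.7, 87.8 and 122.

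Membrane transport and trafficking genes included several without reads. SLC41A1, a magnesium transporter, had 0 reads in HL60 against 41.0 in K562, 111 in SUDHL4 and 33.9 in THP1, and was at least 337-fold lower than the lowest. CPNE3, a calcium-dependent phospholipid-binding protein, had 0 reads against 76.8, 241 and 53.03, at least 527-fold lower. EMC10, a subunit of the complex that inserts proteins into the endoplasmic reticulum membrane, had 0 reads against 26.8, 53.7 and 112, at least 266-fold lower. SLC25A23, a mitochondrial carrier, was lowered to 14.2 from 115, 284 and 92.5 in the other lines. EEF1A2, the tissue-restricted form of elongation factor 1 alpha, had 1 read in HL60 and levels of 21.1, 198 and 58.7 elsewhere. SEL1L3, a membrane protein, stood at 16.5 against 89.6, 569 and 88.1.

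Surface and signalling genes were 9, and ubiquitin ligases and related genes 5. BST2 (tetherin, an interferon-induced protein that holds budding virus at the membrane) stood at 16.6 in HL60 against 82.5, 120 and 88.5. Of 29 interferon-stimulated genes measured, 9 passed the minimum, and BST2 was the only member among them. HL60 was the lowest line for 3 of the 9 and the highest for 2, and the list's median difference between HL60 and the other lines was -0.23. LTBP4, a binding protein of latent TGF-beta, stood at 0.117 against 28.6, 9.68 and 24.98. TRIM32, a ubiquitin ligase, had 0 reads in HL60 against 19.5, 34.4 and 16.6. Among 7 non-coding genes or genes without a symbol, SNHG5, a host of small nucleolar RNAs, had the highest HL60 level of all members, 18.8 from 559 reads against 213, 325 and 187, a ratio of 9.99 (9.16 to 10.9). Of the 142 ribosomal protein genes that passed the minimum, 0 were members. The same held for 30 RAB genes and 91 TMEM genes. Beside the 1.36% of all genes, these counts say little.

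Over all 23 gene lists, 486 distinct genes were measured, 215 passed the minimum, and 3 were members (BST2, ALDH2 and LTBP4), which is 1.40% against 1.36% of all genes. The lists of DNA repair (39 passing the minimum) and apoptosis (17) held 0 members each. Transcripts that mostly lack a poly(A) tail bear on the unknown kit of each library. Of 9 measured, 1 passed the minimum, RN7SK at 19.9 in HL60 against 14.9, 56.0 and 15.1, and the list's median difference between HL60 and the other lines was -0.48. The part of the kit in the losses was not tested.

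Relatives of the leading members were looked up to see whether whole families or complexes were missing. For 27 members, 89 paralogues or complex partners were measured, of which 73 reached 5 in any pure line and 0 were members. The relatives listed for CTSH left out CTSZ, itself a member, so this 0 does not show that relatives were never lost together. HL60 was the highest line for 14 of these (19.2%, against 24.8% of all genes at that level) and the lowest for 16 (21.9% against 15.9%). For 25 of the 27 members at least 1 relative stood at 5 or more in HL60. As 9028 genes stood at that level in HL60 and 11565 placed genes in any pure line, and many members had several relatives, this count says little. EPB41L3, a paralogue of EPB41L2, stood at 148 in HL60, 0 in K562, 0.129 in SUDHL4 and 18.99 in THP1. LPXN (leupaxin), the paxillin relative of blood cells, stood at 110 in HL60 against 1.31, 323 and 15.5. PTK2B, the relative of PTK2, stood at 76.4 against 62.0, 188 and 258.

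MEF2D stood at 49.9 in HL60 and MEF2A at 31.0, both between the other lines, while MEF2C was at 0. HK2 and HK3 were each highest in HL60, HK3 at 45.1 against 0, 0.0551 and 15.02. The 9 other measured subunits of the EMC10 complex (EMC1 to EMC9, with MMGT1 as EMC5) stood between 13.2 and 125 in HL60. EEF1A1, the general form of elongation factor 1 alpha, stood at 20577 in HL60. The beta-tubulins divided: TUBB stood at 3904 and TUBB4B at 740 in HL60, and TUBB2A at 0.620 against 33.5 in K562, 12.4 in SUDHL4 and 1.21 in THP1. These pairs were chosen after the members were seen and are set side by side across lines, not compared with each other in level.

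By position (GENCODE 29, GRCh38, 100 of 101 members placed), chromosome 19 held 18 members of 501 genes that passed the minimum, 3.59%, so that 17.8% of the members lay on a chromosome with 6.73% of the genes. Chromosome 20 followed with 6 of 217 (2.76%), and chromosomes 13 (135 genes) and X (227 genes) held 0. Of 199 nearest-neighbour entries that passed the minimum in the other lines, 10 were members (5.03%, against 1.36% of all genes that passed). Each pair of neighbouring members entered from both sides, and some other genes entered repeatedly, so these entries are not distinct genes. In the 189 other entries the median margin was -0.53, against -0.70 over all genes that passed and were no members. HL60 was below the 3 other lines in 37 of these entries (19.6% against 15.5%). The single run of 3 members among 5 consecutive genes was ZFP69B, ENSG00000260920 and ZFP69 on chromosome 1. These stood at 1.22, 0.687 and 0.385 in HL60, with ZFP69 at 11.3, 12.9 and 149 in K562, SUDHL4 and THP1. They adjoin each other on 1 strand, and whether reads could be shared between them was not tested. Other pairs, next to each other among the genes that passed the minimum, were HK1 with AIFM2, ARHGEF12 with USP2, and KANK2 with DOCK6. Genes that did not pass can lie between them. THY1, NECTIN1 and OAF lay between USP2 and ARHGEF12, with NECTIN1 at 422 and OAF at 30.3 in HL60.

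**Figure D3:**
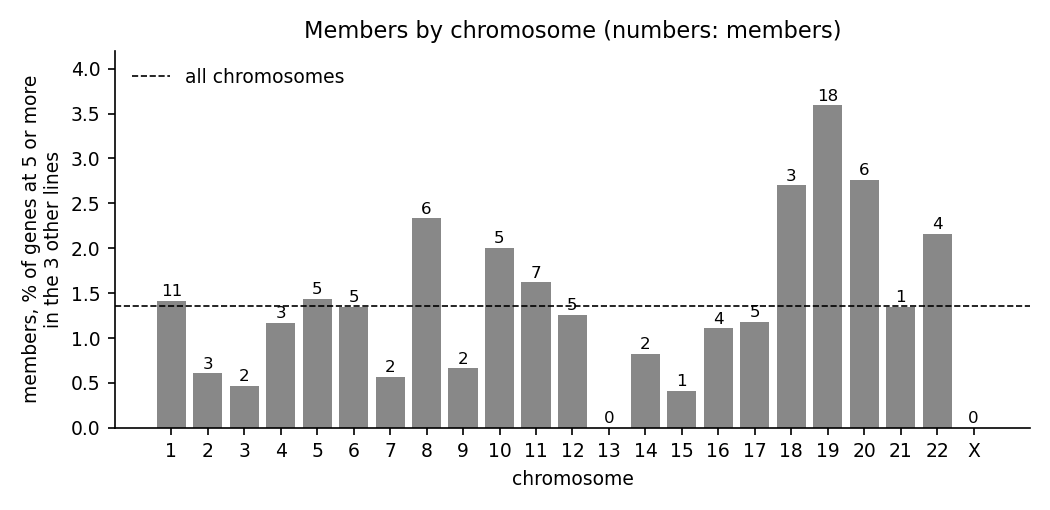
Members as a percentage of the genes at 5 or more in K562, SUDHL4 and THP1 on each chromosome, with the number of members above each bar and the share over all chromosomes as a dashed line. Chromosome 19 is highest with 18 members (3.59%), and chromosomes 13 and X hold 0.

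For the 35 placed members with 3 reads or fewer in HL60, the nearest neighbours expressed in any pure line were examined. Both neighbours stood at 5 or more in HL60 for 19 of them, 1 neighbour for 11, and none for 5. Of 69 such neighbours, 13 had 3 reads or fewer in HL60 (18.8%, against 9.21% of the 11565 genes at 5 or more in any pure line). MEF2C (chr5:88717117-88904257) lay between TMEM161B, at 13.4 in HL60 against 39.7, 21.3 and 13.3 in K562, SUDHL4 and THP1, and CETN3, at 8.598 against 41.9, 21.1 and 16.3. SLC41A1 (chr1:205789093-205813748) lay between RAB29 at 11.4 and FAM72A at 16.9, and GALM, an enzyme of galactose use with 0 reads, between HNRNPLL at 78.1 and SRSF7 at 314. In these cases 1 silent gene lay between expressed neighbours.

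FXR2 (chr17:7591230-7614871) was different. Its neighbour MPDU1 stood at 45.9 in HL60, but SAT2 and ATP1B2 on the other side had 0 reads. SAT2 was expressed in the other lines, at 3.83 in K562, 10.4 in SUDHL4 and 4.35 in THP1. ATP1B2 was above 5 only in K562 (10.1), with 0.0918 in SUDHL4 and 0 in THP1. TRIM32 lies inside ASTN2, which also had 0 reads in HL60 against 2.92, 19.96 and 2.83. EPB41L2 (chr6:130839347-131063322) had AKAP7 beside it at 0 reads in HL60, against 3.995 in K562, 0.349 in SUDHL4 and 15.8 in THP1. EMC10 (chr19:50476400-50490870) had MYBPC2 beside it at 0 reads in HL60 and at 0.212, 12.3 and 0.0458 in K562, SUDHL4 and THP1. JOSD2 on its other side stood at 3.03 in HL60 against 2.61, 3.69 and 20.4. AKAP7 was also low in SUDHL4 (0.349), but not in K562 (3.995) or THP1 (15.8). MYBPC2 was also low in K562 (0.212) and THP1 (0.0458), but not in SUDHL4 (12.3). No DNA was measured in these libraries, and the part of gene copies in these stretches was not tested.

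**Figure D4:**
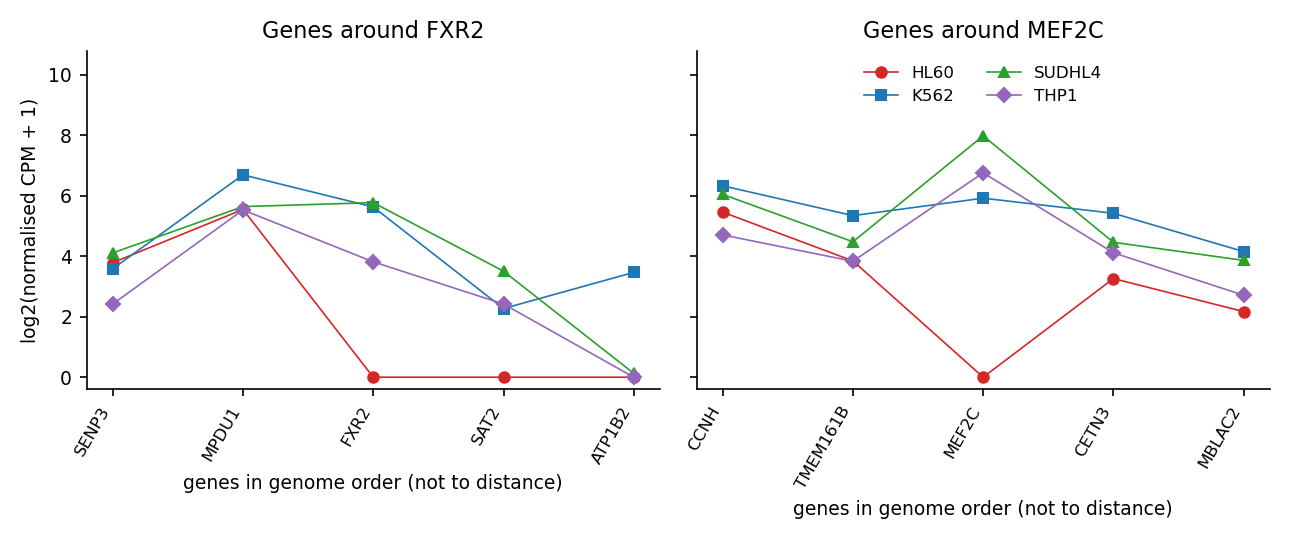
Levels, as log2(normalised CPM + 1), of FXR2 and MEF2C with the 2 nearest genes on each side that reached 5 normalised CPM in any pure line, in genome order and not to distance, with 1 library per cell line. MEF2C alone drops to 0 in HL60 among its neighbours, whereas FXR2, SAT2 and ATP1B2 are all at 0 there.

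Promoter sequences are shown for 4 members with 0 or 1 read in HL60 because they differ widely in CpG content, from 1 to 40 CG, where the members with a promoter ranged from 1 to 51 (the highest being ARHGEF12). They are RefSeq windows (GRCh38.p14) from 250 bases before to 50 after a RefSeq start of the gene. That start can lie inside the gene's GENCODE span, as for MEF2C (span chr5:88717117-88904257). The windows are printed 5′ to 3′ on the gene's strand, with each CG in capitals. The window of EPB41L2 (chr6:131063196-131063495, minus strand) has 40 CG, that of MEF2C (chr5:88883135-88883434, minus strand) 32, that of FXR2 (chr17:7614848-7615147, minus strand) 26 and that of KYNU (chr2:142877414-142877713, plus strand) 1.
EPB41L2: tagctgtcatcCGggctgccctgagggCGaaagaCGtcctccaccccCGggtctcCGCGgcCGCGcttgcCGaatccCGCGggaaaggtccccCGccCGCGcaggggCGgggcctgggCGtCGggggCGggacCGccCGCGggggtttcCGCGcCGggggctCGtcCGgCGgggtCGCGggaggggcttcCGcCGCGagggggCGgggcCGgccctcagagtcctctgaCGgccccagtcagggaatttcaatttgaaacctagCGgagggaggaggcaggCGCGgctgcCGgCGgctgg
MEF2C: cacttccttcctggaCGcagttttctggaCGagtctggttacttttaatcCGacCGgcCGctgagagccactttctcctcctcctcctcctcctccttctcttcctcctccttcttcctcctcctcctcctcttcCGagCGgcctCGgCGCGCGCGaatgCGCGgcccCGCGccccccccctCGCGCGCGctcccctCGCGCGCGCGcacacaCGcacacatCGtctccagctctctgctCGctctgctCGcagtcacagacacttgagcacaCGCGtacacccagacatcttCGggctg
FXR2: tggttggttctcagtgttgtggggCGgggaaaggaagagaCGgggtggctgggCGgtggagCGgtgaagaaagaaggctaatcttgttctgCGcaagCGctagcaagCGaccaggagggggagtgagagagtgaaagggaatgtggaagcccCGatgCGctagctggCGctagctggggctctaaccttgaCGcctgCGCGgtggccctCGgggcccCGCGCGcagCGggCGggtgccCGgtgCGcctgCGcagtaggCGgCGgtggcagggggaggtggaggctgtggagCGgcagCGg
KYNU: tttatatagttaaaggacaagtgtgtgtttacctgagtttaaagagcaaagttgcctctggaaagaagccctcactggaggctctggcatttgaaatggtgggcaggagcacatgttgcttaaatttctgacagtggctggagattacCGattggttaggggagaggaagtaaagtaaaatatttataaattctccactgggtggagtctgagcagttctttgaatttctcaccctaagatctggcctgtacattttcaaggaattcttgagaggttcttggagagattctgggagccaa

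Promoters were found for 78 of the 101 members. The median number of CG was 26.5 in them and 27 in 6042 other genes that passed the minimum, against 14 in all 27305 promoters of the table, and GC content had medians of 67.7% and 65.3%. Promoters with fewer than 10 CG made up 13 of the 78 (16.7%), against 311 of the 6042 (5.15%). The motif GGGCGG, searched on both strands, was found in 74.4% of the members' promoters, 73.4% of the others and 44.6% of all promoters. TATAAA on either strand was found in 1 member, KYNU (1.28%), against 4.49% of the others and 11.95% of all. The median exon length was 6432 bases in members and 5193 bases in the others, and 94 of 100 members were protein coding. The medians of CG and GC lay close to those of the other genes, while the share of promoters poor in CG was larger, a difference that was not tested.

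The 6 mixtures gave readings of the members in libraries the rule had not used. Each mixture was written as a weighted sum of the 4 pure profiles, with weights from 399 signature genes, none of them a member. HL60's weight was 0.462 in mixture 2, 0.252 in mixture 1, 0.229 in mixture 3, 0.0999 in mixture 4, 0.0730 in mixture 6 and 0.00186 in mixture 5. Observed and predicted levels of the members differed by less than 1 log2 unit for all 101 in mixtures 1, 3, 4, 5 and 6 and for 99 in mixture 2. Raising HL60 to the lowest other line would move the prediction by a median of 0.21, 0.52 and 0.24 log2 units in mixtures 1, 2 and 3. In mixtures 4, 5 and 6 it would move by 0.08, 0.0014 and 0.06. For most members this window therefore could not tell a low HL60 level from a raised one. Over all 7439 genes that passed the minimum, the share off by 1 or more was 0.0403% in mixture 1, 0.793% in mixture 2, 0.0538% in mixture 3, 0.0672% in mixture 4, 0.255% in mixture 5 and 0.121% in mixture 6. The members off in mixture 2 were both below the prediction, ARHGEF12 at 26.7 against 55.3 and ZNF525 at 1.88 against 5.28.

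A second prediction raised HL60 to the lowest of the other lines for each member. In mixture 2, where HL60 weighed most, the members lay at a median of -0.15 log2 units from the prediction with the measured HL60 level and at -0.58 from the second, and 75 of 101 were nearer the first. In mixtures 1 and 3 the medians were 0.01 and 0.02 against -0.20 and -0.23, with 72 and 80 members nearer the first. The corresponding counts were 69 in mixture 4, 56 in mixture 5 and 55 in mixture 6, where HL60 weighed little and the 2 predictions differed by a median of at most 0.08 log2 units. MEF2C in mixture 2 was observed at 44.8, against 52.97 predicted and 80.5 with HL60 raised, and EPB41L2 at 38.4 against 53.5 and 93.4. FXR2 was observed there at 14.5 against 16.2 and 22.3. EMC10 went the other way, at 47.2 against 34.5 predicted and 46.9 with HL60 raised, and TUBB6 lay between, at 98.8 against 79.6 and 128.

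**Figure D5:**
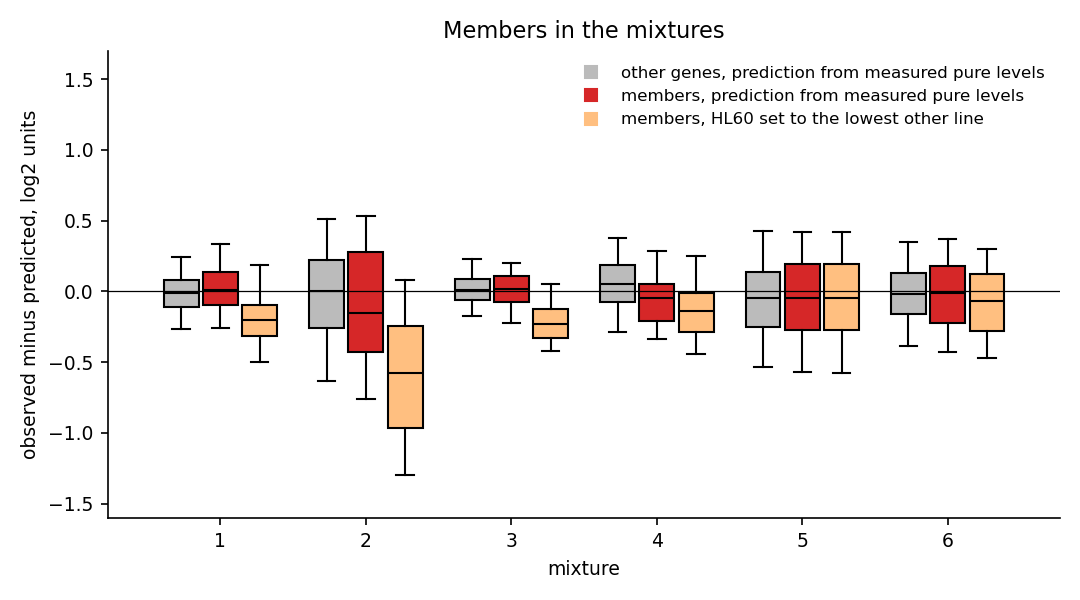
Observed minus predicted level in log2 units for each of the 6 mixtures: genes that passed the minimum and are no members (grey), members predicted from the measured pure levels (red) and members with HL60 set to the lowest other line (orange). Boxes span the quartiles with the median as a line and whiskers reach the 5th and 95th percentile; in mixture 2 the members' median is -0.15 for the first prediction and -0.58 for the second.

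Each member's level in the 4 lines was also estimated from its values in the 6 mixtures, without its own pure-line values. The weights still came from the pure profiles of the signature genes. HL60 stayed 2 or more log2 units below the lowest of the others for 51 of 101 members (50.5%), against 2.84% of all 7439 genes and 2.18% of the genes that were no members. It was the lowest or tied lowest line for 72 members, a count for which no share over the other genes is available. That count includes ties with another line at 0, as for CELSR2, with SUDHL4 also at 0. HL60 was put at 0 for 48.5% of the members against 2.77% of the other genes. MEF2C was estimated at 0 in HL60 against 35.8 in K562, 231 in SUDHL4 and 135 in THP1, and EPB41L2 at 0 against 56.3, 139 and 132. CPNE3, PTK2, MYH10 and FXR2 were also estimated at 0 in HL60. SEPTIN11, at 15.2 in pure HL60, was estimated at 0 from the mixtures.

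For 29 members the mixtures did not put HL60 lowest. SNHG5 was estimated at 92.7 in HL60, PRDX2 at 66.3, CSTB at 65.9, GAMT at 42.2 and BST2 at 39.7, with THP1 at 0 for each of these 5. TUBB6 was estimated at 51.9 in HL60 against 12.2 in THP1. EMC10, without a read in pure HL60, was not among the 29. It was estimated at 28.0 in HL60, the lowest line, against 76.1 in K562, 91.6 in SUDHL4 and 35.1 in THP1. THP1 was put at 0 for 23.8% of the members and for 24.8% of the other genes, a similar share. The small number of mixtures for 4 unknown levels leaves these estimates loose, with a condition number of 14.3 for the weights.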

How the data were processed

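RNA-seq was analysed for 10 libraries, 1 per group: 4 pure lines and 6 mixtures, each assigned from its title. The authors deposited 1 table of signal values on a CPM scale; per the submitters' processing notes, HISAT2, featureCounts, Cell Ranger ARC 2.0.0 and hg19 were used, while the roles of these tools, the annotation, the rescaling of library sizes and the use of strand in counting are not given in the sources used here. Each deposited value above 0 was a whole number of reads plus 0.5, times a constant for its column (100% whole within 0.01), and no gene had fewer than 11 reads over all libraries. Ratios use reads times that constant, without the 0.5, and 3 reads stand in for 0. Intervals are exact 95% Poisson (levels) or binomial (ratios) intervals and cover counting error only.

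The members, gene lists and roles were chosen with earlier results of these data known. Genes named by rule were the 12 with the largest margin, the 10 with the highest lowest-of-3 level, list members, runs of 3 among 5 consecutive genes, the 3 on each side of the threshold, and the 4 with the highest HL60 level. Members off the prediction in at least 3 mixtures were also to be named, and there were none. Mixture weights came from non-negative least squares on 100 signature genes per line; the plan had assumed no signature gene would be a member, but 1 (PPP1R16B) was and was left out. Positions come from GENCODE 29 (GRCh38) by Ensembl ID and promoters from RefSeq; clustering was to be given by chromosome arm but is given by chromosome. The alternatives were other pseudocounts, margins, minimum levels, scalings and signature sizes. Some list and neighbourhood results are not reported here. The scripts were tested on simulated data. Python 3.11.15, numpy 2.4.6, pandas 2.3.3, scipy 1.17.1 and matplotlib 3.10.9 were used.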

Additional observations from a re-analysis of the deposited data

How the results depend on the processing

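No paired analysis was possible because each group held 1 library. The number of losses in HL60 (101) was 119 with a pseudocount of 0.25, 142 with a margin of 1.5, 124 with a minimum of 1 and between 109 and 118 under 3 other scalings, and all 101 members were kept in each of these. It moved to 39 with a pseudocount of 5, 55 with a margin of 3 and 35 with a minimum of 20. Under the same 3 settings the losses in K562 (275) moved to 154, 177 and 145, those in SUDHL4 (311) to 135, 189 and 137, and those in THP1 (53) to 23, 15 and 33; a margin of 1.5 gave 163 in THP1. Scaling on housekeeping genes moved the median difference of HL60 from the other lines, over all genes that passed the minimum, from 0.16 to -0.11. The 51 members low in HL60 by their mixture values became 46 with 50 signature genes per line, and between 38 and 51 when 1 mixture was left out. Depth limits the members with 0 to 3 reads in HL60, whose ratios are bounds or have wide counting intervals.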
